A study of Mus musculus with 4 samples.

Results

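The genes described here are 8 matrix glycoproteins (Fn1, Sparc, Tnc, Postn, Fbn1, Vcan, Spp1 and Tgfbi) and 2 cell surface receptors that bind matrix (Cd44 and Itga5). These 10 genes were chosen by symbol and role, with earlier results of these data known, out of 35905 genes in the tables. All 10 had enough counts to be tested. Messenger RNA was sequenced from LLC cells, the Lewis lung carcinoma line, which arose in the lung of a C57BL/6 mouse. The cells carried the red fluorescent protein TdTomato, were grown as subcutaneous flank tumours for 4 weeks, and were recovered by collagenase and hyaluronidase digestion and by sorting for TdTomato without the leukocyte antigen CD45. The 4 libraries formed 2 groups of 2, by the host. Every host was C57BL/6 with both Padi4 alleles floxed (Padi4fl/fl). WT hosts had no Cre (Mrp8Cre-), and PAD4-DN hosts carried Mrp8Cre (Mrp8Cre+), a driver active in neutrophils, so that the deletion was in host cells and not in the implanted line, and the level of Padi4 in the sorted cells does not check it. The comparison asks whether cancer cells of a primary tumour express these genes differently when the host's neutrophils lack Padi4. The labels used here do not give the hosts' age or sex, nor whether the replicates were separate mice, so the p-values cover only the spread between these libraries, which may be technical. Where values are listed, replicate 1 comes before replicate 2.

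Matrix glycoproteins are secreted, multidomain proteins that link collagen fibres, growth factors and cells. Fibronectin, osteopontin, periostin, tenascin-C and the TGF-beta-induced protein are ligands of integrins, and CD44 binds hyaluronan, the sugar chain that versican also binds. In solid tumours both cancer cells and fibroblasts can make these proteins.

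The libraries held 20036322 to 25327974 estimated counts each, and 0 of 13718 genes passed a false discovery rate of 0.05 between the genotypes by edgeR's quasi-likelihood test (364 had an unadjusted p under 0.05). DESeq2 called 10 genes or, on the genes kept for edgeR, 11, and no member was among them. Among markers of other cells, the PAD4-DN libraries differed from each other in macrophage and leukocyte markers, and the WT libraries lay closer together. The 20 macrophage and monocyte markers summed to 71.0 and 72.8 CPM (counts per 1e6 counts, on library sizes scaled by the TMM method) in WT replicates 1 and 2 and to 149.7 and 27.6 CPM in PAD4-DN replicates 1 and 2. The 10 pan-leukocyte markers summed to 19.7 and 20.5 CPM against 43.4 and 7.13 CPM. Ptprc, which encodes CD45, was at 2.20 and 1.71 CPM in WT against 5.42 and 0.713 CPM in cells sorted as CD45-negative. The epithelial keratins Krt8 and Krt18 were at 158 to 217 CPM in all 4 libraries, while the epithelial adhesion genes Epcam and Cdh1 were at most at 0.342 CPM. In bulk RNA fewer cells of a type and less RNA per cell cannot be told apart. TdTomato itself was not analysed here.

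Per transcript length, Spp1 and Fn1 stood far above the other members. Levels between genes are compared in TPM (transcripts per 1e6 transcripts), which divides by length. Spp1, encoding the secreted phosphoprotein osteopontin, had 2615 and 1463 TPM in WT and 1843 and 3924 TPM in PAD4-DN. Fn1, encoding fibronectin, had 2095 and 1533 TPM in WT and 1970.2 and 2452 TPM in PAD4-DN. The ranges of these genes overlapped, and their mean levels ranked at 60 and 77 among 21850 protein-coding genes. Fn1 alone held 1.20% and 0.858% of all counts in the WT libraries and 1.08% and 1.32% in the PAD4-DN libraries. The next 4 members ran into each other in order of mean TPM. Sparc lay between 199.7 and 330.1 TPM, Cd44 between 231 and 273 TPM, Vcan between 175 and 269 TPM and Fbn1 between 135 and 177 TPM. The last 4 also overlapped, with Itga5 between 54.7 and 79.4 TPM, Tgfbi between 27.9 and 81.3 TPM, Tnc between 31.7 and 73.7 TPM and Postn between 0.0996 and 64.1 TPM. The ranges of neighbours within these 3 tiers overlapped, and the tiers themselves did not overlap. Compared within each library, Vcan was above Fbn1 in every library.

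**Figure D1:**
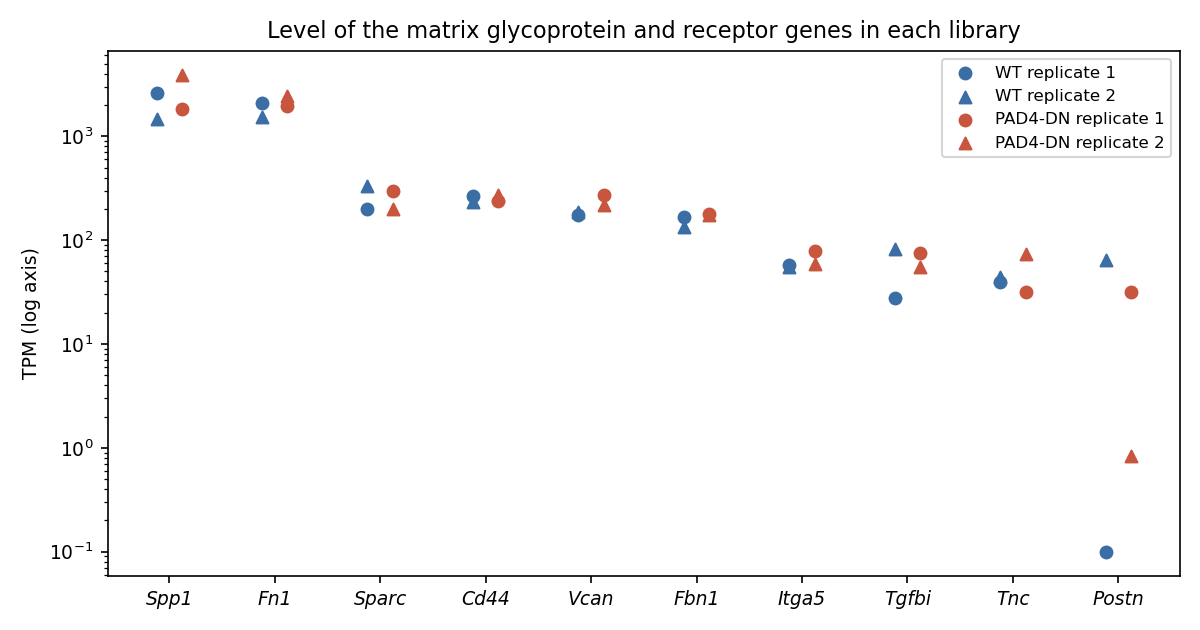
TPM of each member on a log axis, ordered by mean TPM, with WT libraries in blue, PAD4-DN libraries in red, circles for replicate 1 and triangles for replicate 2. Spp1 and Fn1 lie at 1463 TPM or above in every library, and Postn spreads from 0.0996 to 64.1 TPM.

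Fibronectin is the dimeric matrix protein that cells assemble into fibrils through integrins. In CPM, the scale of the test between genotypes, Fn1 was at 12371 and 8614 (WT) and at 10581 and 13317 (PAD4-DN). PAD4-DN replicate 2 was highest and WT replicate 2 lowest, and the genotypes overlapped. The log2 fold change, PAD4-DN minus WT, was 0.19 (SE 0.22). Fibronectin is known for 2 alternative exons, extra domain A (EDA) and extra domain B (EDB), each coding one fibronectin type III repeat and kept in wound and tumour matrix more than in adult tissue. Both are shown because Fn1 transcripts with and without EDB were both abundant, and because the EDB share varied most between libraries among the exons plotted. They lie on chromosome 1, minus strand, in GENCODE release M21 on build GRCm38, at chr1:71613763-71614035 for EDB, exon 25 of transcript Fn1-201, and at chr1:71603660-71603929 for EDA, exon 33. EDB has 273 bases and EDA 270, both whole numbers of codons. Capitals mark the exon and lower case the 12 bases of its neighbours on each side.
Fn1 EDB exon: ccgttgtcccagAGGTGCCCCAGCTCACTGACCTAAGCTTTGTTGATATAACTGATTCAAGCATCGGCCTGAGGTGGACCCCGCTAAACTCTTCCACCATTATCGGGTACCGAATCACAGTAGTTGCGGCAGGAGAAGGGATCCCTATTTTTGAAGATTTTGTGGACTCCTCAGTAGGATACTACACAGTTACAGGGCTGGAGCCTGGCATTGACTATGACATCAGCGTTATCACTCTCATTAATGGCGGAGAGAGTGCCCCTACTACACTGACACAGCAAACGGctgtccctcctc
Fn1 EDA exon: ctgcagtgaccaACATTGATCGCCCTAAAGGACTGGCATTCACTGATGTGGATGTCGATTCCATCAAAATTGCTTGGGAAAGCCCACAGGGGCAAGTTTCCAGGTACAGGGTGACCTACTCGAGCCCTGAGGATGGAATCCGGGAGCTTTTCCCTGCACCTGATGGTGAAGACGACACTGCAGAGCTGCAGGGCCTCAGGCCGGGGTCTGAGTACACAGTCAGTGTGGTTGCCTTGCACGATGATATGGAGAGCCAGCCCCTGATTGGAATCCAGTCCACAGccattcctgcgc
A transcript that skips the exon joins its neighbours directly. Where transcripts differ by the exon alone, only reads over such joints or inside the exon tell the forms apart. In the following joints capitals mark the last 15 bases of the exon before, and lower case the 15 bases after it.
EDB kept: ATACCGTTGTCCCAGaggtgccccagctca
EDB skipped: ATACCGTTGTCCCAGctgtccctcctccca
EDA kept: AAACTGCAGTGACCAacattgatcgcccta
EDA skipped: AAACTGCAGTGACCAccattcctgcgccca

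Most fibronectin transcripts in these libraries held EDA, and between 37.3% and 57.5% held EDB. Of the TPM of transcripts that span the exon, those with EDA made up 88.8% and 90.1% in WT and 82.7% and 91.4% in PAD4-DN. Those with EDB made up 52.8% and 54.0% (WT) and 37.3% and 57.5% (PAD4-DN). PAD4-DN replicate 1 was lowest for both exons, and PAD4-DN replicate 2 was highest for both. As group means the EDB share was 53.4% ± 0.812 in WT and 47.4% ± 14.3 in PAD4-DN (SD, n = 2 each), and both WT values lay between the PAD4-DN values. The share with EDB rested on 1 annotated transcript, Fn1-201, against 7 without it. Fn1-201 also holds EDA, so the shares of EDA and EDB are not independent. The annotated transcripts also differ outside these exons. Fn1-214 and Fn1-213 both hold EDA without EDB but are 8043 and 7680 bases long, so reads elsewhere can also set the shares. Kallisto divides reads among transcripts by an estimate, so these shares have no counting interval, and 75-cycle single-end reads cannot join distant exons.

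Spp1 followed the same order of libraries as Fn1 with a wider spread. Osteopontin is a secreted ligand of integrins and of CD44, made by many tumour cells and by macrophages. Spp1 was at 2364 and 1258 CPM (WT) and at 1537 and 3295 CPM (PAD4-DN). PAD4-DN replicate 2 was highest, WT replicate 1 next, and the remaining library of each genotype was low, so the genotypes overlapped. The log2 fold change was 0.42 (SE 0.44). Macrophage markers, summed in the same order of libraries, were at 71.0 and 72.8, then 149.7 and 27.6 CPM, and their part in the Spp1 values was not tested. Transcript Spp1-201 carried 91.3% to 93.9% of Spp1 TPM in the 4 libraries.

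Periostin, a secreted protein of fibroblasts and bone-lining cells that binds integrins and collagen, had the widest spread of all members. Postn drew 5 and 3256 counts (WT) and 1287 and 41 counts (PAD4-DN). In CPM these were 0.220 and 129.1, then 62.8 and 1.72. Each genotype therefore held 1 library with much Postn and 1 with almost none. WT replicate 2 was 588-fold above WT replicate 1, where 5 counts have an exact 95% Poisson interval of 0.0714 to 0.513 CPM for counting error only. PAD4-DN replicate 1 was 36.5-fold above PAD4-DN replicate 2. The log2 fold change between genotypes was −1.01 with a standard error of 2.10, and its sign depends on the library left out: leaving out WT replicate 2 gave 7.16, and leaving out PAD4-DN replicate 1 gave −5.23. As log2(CPM + 0.5), which narrows the spread of low values, Postn spread over 7.49 between its lowest and highest library, against a median of 0.43 over all tested genes, and 99.99% of tested genes had a narrower range. Transcript Postn-204 held 92.2% and 90.8% of Postn TPM in the libraries with many counts, WT replicate 2 and PAD4-DN replicate 1.

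The genes nearest to Postn in profile over the 4 libraries, by the root mean square distance of log2(CPM + 0.5) around each gene's mean, were Mmp2 (distance 0.51), Igfbp5 (0.77) and Col1a2 (0.78). Col1a2, a chain of type I collagen, was at 0.879 and 403.8 CPM in WT libraries, then 467.0 and 3.94 CPM in PAD4-DN libraries. Mmp2, a gelatinase, had 0 counts in WT replicate 1, which allows up to 0.132 CPM, then 39.2 CPM in WT replicate 2, and 45.0 and 1.01 CPM in PAD4-DN. Igfbp5, a secreted binder of insulin-like growth factors, also had 0 counts in WT replicate 1 and was at 36.3 CPM in WT replicate 2 and 9.42 and 0.335 CPM in PAD4-DN. Like Postn, they were high in WT replicate 2 and PAD4-DN replicate 1 and low in the other libraries.

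Fibroblast markers divided by level. The 11 of 20 markers with a mean of at least 20 CPM, among them Dcn, Lum, Prrx1 and Pdgfra, summed to 2870 and 2737 CPM in WT libraries and to 2934 and 3413 CPM in PAD4-DN libraries, and 2 of the 11 had WT replicate 2 and PAD4-DN replicate 1 as their highest libraries. The other 9, among them Thy1, Pi16, Clec3b, Col14a1 and Col15a1, summed to 29.5 and 113.5 CPM in WT libraries and to 105.2 and 37.0 CPM in PAD4-DN libraries, and 8 of the 9 had that pair highest. Meox1, counted among these 8, was not tested and drew 1 and 2 counts in WT and 12 and 0 counts in PAD4-DN. It is therefore outside the 19 tested fibroblast markers counted further on. The division by mean level was chosen after the values were seen. Pi16, a marker of dermal and adventitial fibroblasts, was at 0.615 and 13.4 CPM (WT) and at 14.4 and 1.17 CPM (PAD4-DN). Col14a1 was at 1.80 and 31.6 CPM in WT libraries, then 26.4 and 3.31 CPM in PAD4-DN libraries. None of the 20 markers was at 0 counts in all 4 libraries, and 1 (Meox1) was at 0 in 1 library, PAD4-DN replicate 2. The part of other cells in the Postn values was not tested.

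Promoter sequence is shown for Postn and Spp1, whose pairs of highest libraries were opposite. RefSeq promoters on GRCm38.p6 were found for 9 of the 10 members, with Fn1 the one not matched. RefSeq gives 2 start sites for Postn and 2 for Spp1. Each stretch holds the 250 bases before the site that had a motif match, chosen for that, 5′ to 3′, with motif matches in capitals. For Postn this is chr3:54360857-54361106, plus strand, and for Spp1 chr5:104434861-104435110, plus strand.
Postn promoter: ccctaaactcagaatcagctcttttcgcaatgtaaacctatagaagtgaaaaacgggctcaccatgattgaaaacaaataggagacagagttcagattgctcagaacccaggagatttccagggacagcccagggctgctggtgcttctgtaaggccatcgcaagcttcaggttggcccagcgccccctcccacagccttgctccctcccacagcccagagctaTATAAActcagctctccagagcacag
Spp1 promoter: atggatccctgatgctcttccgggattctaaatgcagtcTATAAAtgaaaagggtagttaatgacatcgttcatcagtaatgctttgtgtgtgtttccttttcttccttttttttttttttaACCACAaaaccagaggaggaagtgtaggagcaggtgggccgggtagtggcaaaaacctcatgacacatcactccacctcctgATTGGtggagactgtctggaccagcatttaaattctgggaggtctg
Both strands were searched for the TATA box TATAAA, the CCAAT box CCAAT, the AP-1 motif TGANTCA, the TEAD motif GGAATG, the RUNX motif TGTGGT and the cyclic AMP response element TGACGTCA. No matches in these stretches overlap. The Postn stretch held TATAAA, starting 26 bases before that start site. The Spp1 stretch held TATAAA at 211 bases before its end, a reverse-strand match of TGTGGT at 128 and a reverse-strand CCAAT at 46. Over all 32851 RefSeq promoters of the same length, 12.4% held TATAAA, 33.8% CCAAT, 14.0% TGTGGT, 12.6% GGAATG, 6.7% TGANTCA and 1.5% TGACGTCA. The stretches before the other start site of Postn and of Spp1 held none of these motifs. A match describes these letters and not a bound factor.

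Tgfbi and Sparc shared the pair of highest libraries with Postn at much smaller spreads. TGFBI is a secreted adhesion protein induced by TGF-beta. Tgfbi was at 52.9 and 146.6 CPM (WT) and at 131.6 and 95.7 CPM (PAD4-DN). Both PAD4-DN values lay between the WT values, and the log2 fold change was 0.19 (SE 0.47). SPARC, or osteonectin, is a collagen-binding glycoprotein. Sparc was at 299 and 466 CPM in WT libraries, then 405 and 276 CPM in PAD4-DN libraries. The replicates crossed the genotypes again, with a log2 fold change of −0.17 (SE 0.28). Without WT replicate 1 the Tgfbi change was −0.36, and without WT replicate 2 it was 1.10. The genes nearest to Tgfbi in profile were the small GTPase Rhob (distance 0.14), Dclk1 (0.14) and the elastic-fibre protein Fbln5 (0.15). Those nearest to Spp1 were the EGF-family ligand Ereg (0.10), Sox5 (0.14) and Hao1 (0.14). Ereg was at 67.1 and 34.7 CPM (WT) and at 48.5 and 85.8 CPM (PAD4-DN). With 4 libraries such likeness is a description of these libraries alone.

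**Figure D2:**
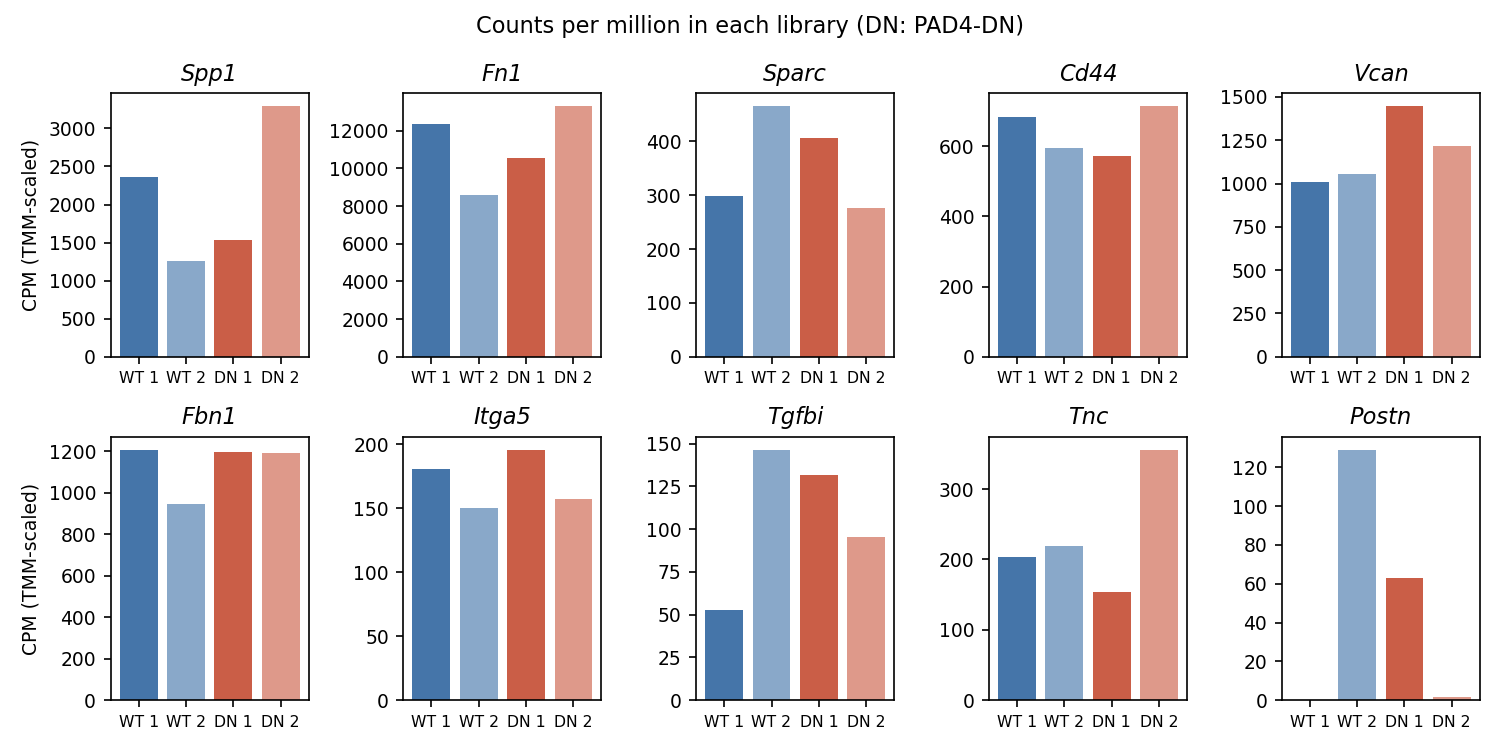
CPM of each member in each library on axes that start at 0, WT in blue and PAD4-DN (DN) in red, with replicate 2 in the lighter shade. Postn is high in WT replicate 2 (129.1) and PAD4-DN replicate 1 (62.8), Spp1 is high in WT replicate 1 (2364) and PAD4-DN replicate 2 (3295), and Vcan is higher in both PAD4-DN libraries.

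Tenascin-C, an adhesion-modulating glycoprotein of wounds and tumours, was highest in PAD4-DN replicate 2. Tnc was at 204 and 219 CPM in WT libraries, then 153 and 356 CPM in PAD4-DN libraries. The WT libraries lay close together between the PAD4-DN libraries, and the log2 fold change was 0.27 (SE 0.38). It was 0.75 without PAD4-DN replicate 1 and −0.46 without PAD4-DN replicate 2. The main transcripts begin at different sites 26290 bases apart on chromosome 4 (GRCm38, minus strand). Tnc-204, from the upstream site, held 72.6% and 56.4% of Tnc TPM in WT and 82.8% and 54.8% in PAD4-DN. Tnc-201, from the downstream site, held 22.7% and 38.5% (WT) and 9.72% and 41.3% (PAD4-DN). The libraries with most Tnc thus had the larger share of Tnc-201. Both code the same length of 6057 bases, and their first exons are 267 and 582 bases long. A coding exon of 273 bases, in Tnc-203, was held by 3.91% to 7.08% of spanning Tnc TPM.

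Fibrillin-1 forms the microfibrils of elastic tissue, and versican is the large hyaluronan-binding proteoglycan of provisional matrix. Fbn1 was at 1209 and 948 CPM (WT) and at 1195 and 1194 CPM (PAD4-DN). Except for the lower WT replicate 2 its libraries lay close together, and the log2 fold change was 0.15 (SE 0.16). Vcan was at 1008 and 1056 CPM in WT libraries, then 1448 and 1219 CPM in PAD4-DN libraries. Both PAD4-DN libraries lay above both WT libraries, with a mean of 1333 ± 162 CPM against 1032 ± 33.9 CPM (SD, n = 2 each). The log2 fold change was 0.37 (SE 0.15), which did not pass by edgeR's quasi-likelihood test over all genes (unadjusted p = 0.0504, adjusted p = 0.988). It stayed between 0.24 and 0.49 in the fits that leave out 1 library, where groups without overlap keep their direction. By DESeq2 and by limma-trend on log2 TPM its unadjusted p was under 0.05, and its adjusted p was not. With so few libraries the smallest two-sided p of an exact permutation test is 0.333. Versican forms differ in 2 exons that carry chondroitin sulfate chains. The exon of 5217 bases was held by 96.6% to 98.3% of spanning Vcan TPM. The exon of 2880 bases was held by 15.2% and 18.7% in WT and by 18.5% and 19.2% in PAD4-DN libraries. Vcan-206, with the 5217-base exon and without the 2880-base exon, was the main transcript at 67.9% to 71.3% of Vcan TPM.

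The receptors had narrow ranges, of 1.25-fold between the lowest and highest library for Cd44 and 1.31-fold for Itga5. CD44 is the main receptor of hyaluronan and also binds osteopontin. Cd44 was at 684 and 596 CPM (WT) and at 572 and 715 CPM (PAD4-DN). The log2 fold change was 0.01 (SE 0.17). PAD4-DN replicate 2 was highest and PAD4-DN replicate 1 lowest, so the PAD4-DN libraries enclosed the WT libraries. CD44 is known for a block of variable exons in its extracellular stem. Transcripts that hold the first exon of the block in Cd44-207 (117 bases) made up 35.2% and 42.0% of spanning Cd44 TPM in WT and 35.6% and 48.4% in PAD4-DN libraries. The share was higher in WT replicate 2 and PAD4-DN replicate 2 than in the other libraries. Cd44-207 holds 5 variable exons, and the short Cd44-203 holds none. The last exon is 3197 bases long in Cd44-207 and 1791 in Cd44-203, so reads in the part that Cd44-203 lacks also set this share. A further run of 3 exons, held by Cd44-201 alone, was in 2.17% to 2.85% of spanning Cd44 TPM.

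Itga5 encodes the alpha chain that pairs with Itgb1 to form the classical fibronectin receptor. Itga5 was at 181 and 149.95 CPM in WT libraries, then 196 and 157 CPM in PAD4-DN libraries. The genotypes interleaved, with replicate 1 above replicate 2 in each, and the log2 fold change was 0.09 (SE 0.17). Its partner Itgb1 was at 1436 and 1370.3 CPM (WT) and at 1422 and 1636 CPM (PAD4-DN), which is 563 mean TPM against 62.8 mean TPM for Itga5. The alpha chain Itgav, which pairs with other beta chains to bind osteopontin, periostin and TGFBI, was at 349 and 354 CPM in WT libraries, then 336 and 430.2 CPM in PAD4-DN libraries.

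**Figure D3:**
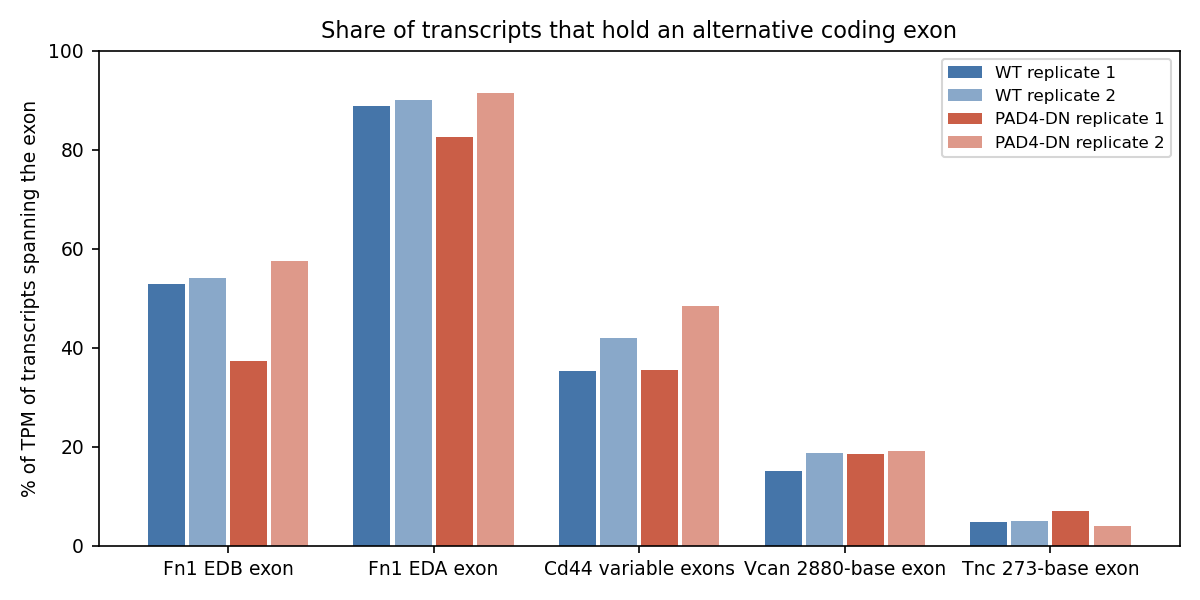
Share of spanning transcripts (percent of TPM, axis from 0 to 100) that hold each alternative coding exon, one bar per library, WT in blue and PAD4-DN in red, with replicate 2 in the lighter shade. The EDB share of Fn1 is lowest in PAD4-DN replicate 1 (37.3%) and between 52.8% and 57.5% in the other libraries.

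Between genotypes, no member passed. Of the 10 members 0 had an adjusted p under 0.05 by edgeR's quasi-likelihood test over 13718 genes, where 0% of all tested genes passed, and 0 had an unadjusted p under 0.05, against 2.65% of all tested genes. Adjusted p ran from 0.988 to 0.997 over the members. The log2 fold change was positive for 8 of 10 members, against 51.5% of all tested genes, and its median was 0.17, against 0.01 over all tested genes. The direction of 9 of the 10, all but Vcan, turned when 1 library was left out. A gene whose groups do not overlap, as for Vcan and 32.8% of all tested genes, keeps its direction in such fits. The share of all tested genes that turned was not counted. Both PAD4-DN libraries lay above both WT libraries for 1 member, Vcan, against 15.4% of all tested genes, and below for 0 members, against 17.4%. In TPM, Fbn1 and Itga5 joined Vcan with both PAD4-DN libraries above both WT libraries, 3 of 10 members against 22.9% of all tested genes on that scale. The standard error was above 0.20, the median over all tested genes, for 6 of the 10 (Fn1, Sparc, Tnc, Postn, Spp1 and Tgfbi).

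**Figure D4:**
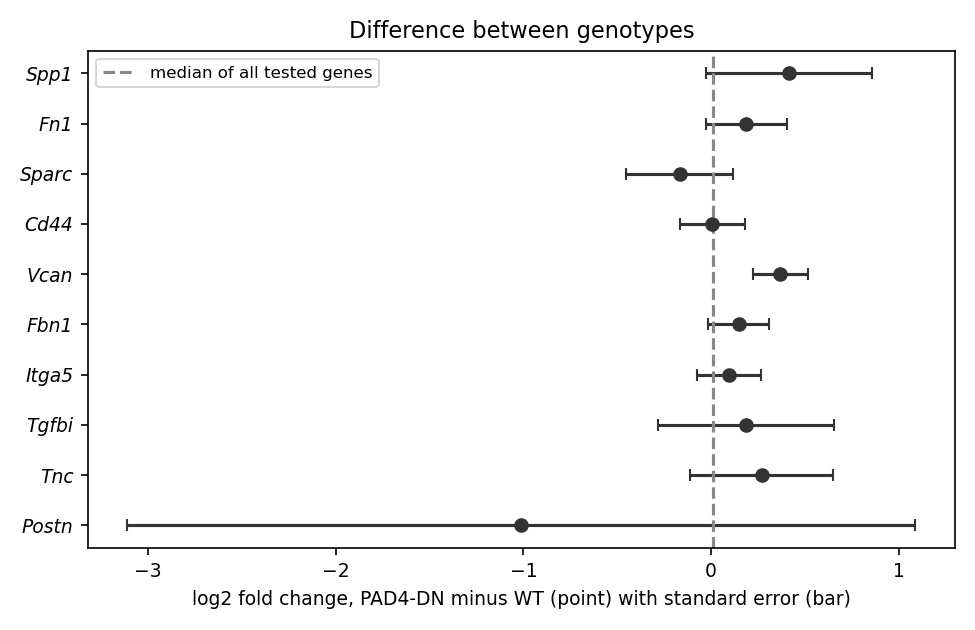
Log2 fold change of each member, PAD4-DN minus WT, as a point with its standard error as a bar. The dashed line marks the median of all tested genes (0.01). Vcan lies at 0.37 with a standard error of 0.15, and the bar of Postn (2.10) runs past both ends of the other members.

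The order of the libraries was shared by members in opposite ways. Sparc, Postn and Tgfbi had WT replicate 2 and PAD4-DN replicate 1 as their highest libraries, a pair that led in 19.1% of all tested genes. Fn1, Spp1 and Cd44 had WT replicate 1 and PAD4-DN replicate 2 highest, a pair that led in 15.4%. Among the other matrix glycoproteins 23 of the 38 tested were highest in WT replicate 2 and PAD4-DN replicate 1, and 1 in the opposite pair. Fbln2, an elastic-fibre protein, is an example outside the rule for named genes, chosen after its values were seen, at 8.70 and 57.0 CPM (WT) and at 53.5 and 12.2 CPM (PAD4-DN). In the other pathway lists WT replicate 2 and PAD4-DN replicate 1 were highest for 3 of 13 hyaluronan and lectican genes, and the opposite pair for 2. For other integrin subunits these counts were 4 and 5 of 21. They were 7 and 4 of 18 for other matrix receptors, and 3 and 4 of 21 for integrin adhesion adaptors. Of the markers tested, the pair of WT replicate 2 and PAD4-DN replicate 1 was highest for 10 of 19 macrophage and monocyte and 4 of 10 pan-leukocyte markers. It was also highest for 4 of 10 endothelial and 4 of 7 pericyte and smooth muscle markers, and the opposite pair for 0 in each of these lists. The macrophage sums of the WT libraries were close, at 71.0 and 72.8 CPM. The first pair was highest for 9 of 19 fibroblast, 1 of 7 neutrophil, 1 of 8 erythroid and platelet and 0 of 5 epithelial and keratinocyte markers. It was highest for 0 of 4 skeletal muscle and 0 of 2 T and NK cell markers. The opposite pair was highest for 3 fibroblast, 1 erythroid and platelet and 1 skeletal muscle marker. The part of these cells in the library order of the members was not tested.

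**Figure D5:**
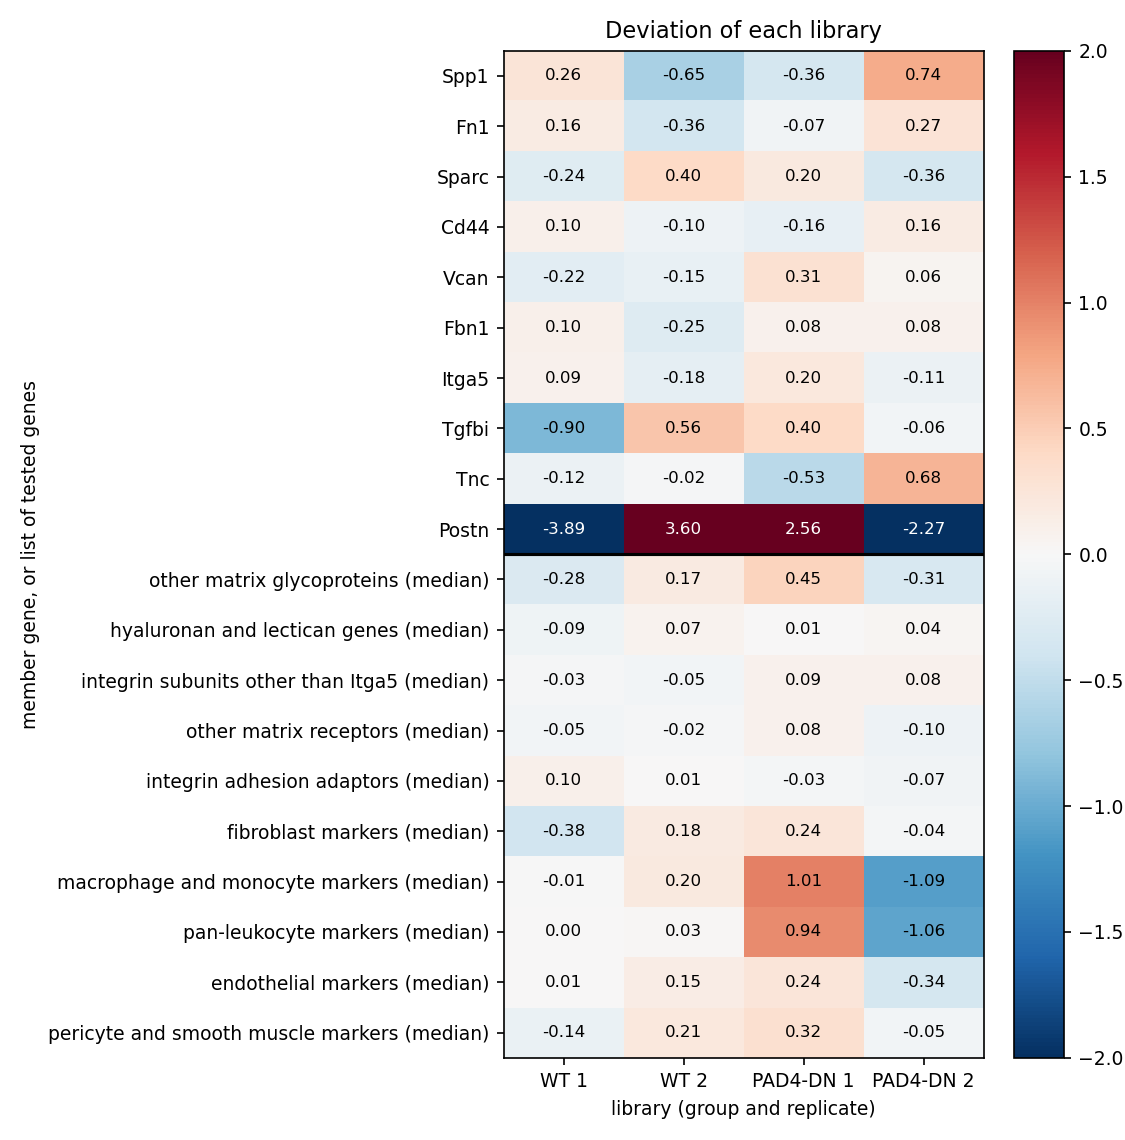
Deviation of each library from the mean of the libraries in log2(CPM + 0.5), for each member and as the median of tested genes in each list, with red above and blue below the mean and colour capped at 2. Postn reaches 3.60 in WT replicate 2 and −3.89 in WT replicate 1, and the macrophage median is 1.01 for PAD4-DN replicate 1 and −1.09 for PAD4-DN replicate 2.

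Genes around the members were compared in the same fit, and none passed. Of 45 other matrix glycoproteins 38 were tested, 0 were called in either direction, and the median log2 fold change was 0.03, which ran from −0.38 to 0.50 with 1 library left out. The thrombospondin Thbs3 was at 48.2 and 49.8 CPM (WT) and at 78.6 and 56.0 CPM (PAD4-DN), and matrilin-2 (Matn2) at 227 and 179.5 CPM in WT against 342 and 241 CPM. The fibulin Efemp2 was at 92.8 and 99.0 CPM in WT against 84.9 and 73.3 CPM. Of the most abundant, Thbs2 was at 882 and 688 CPM in WT against 956 and 850.0 CPM, and the TGF-beta-binding Ltbp1 at 507 and 449.5 CPM in WT against 535 and 439 CPM. Thbs3, Matn2 and Efemp2 were chosen for their small p. Over the list both PAD4-DN libraries were higher for 3 and lower for 2 of the 38, against 15.4% and 17.4% of all tested genes.

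Of 19 hyaluronan and lectican genes 13 were tested, 0 were called, and the median was 0.06 (−0.060 to 0.22 with 1 library left out). Has2, a hyaluronan synthase that makes the ligand of CD44, was at 23.0 and 21.2 CPM in WT libraries, then 23.8 and 31.2 CPM in PAD4-DN libraries. The hyaluronan-binding Tnfaip6 was at 8.88 and 12.7 CPM in WT against 27.5 and 9.01 CPM, high in PAD4-DN replicate 1 alone. Hyal2 was at 19.1 and 20.3 CPM in WT against 18.5 and 16.6 CPM. Layn, of highest mean TPM in this list, was at 51.7 and 29.5 CPM in WT against 38.9 and 40.6 CPM. Over the list both PAD4-DN libraries were higher for 1 and lower for 2 of the 13, against 15.4% and 17.4% of all tested genes. Hapln1, the link protein that fixes proteoglycans to hyaluronan, had at most 0.503 CPM and was not tested.

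Of 25 other integrin subunits 21 were tested, 0 were called, and the median was 0.13 (0.13 to 0.20 with 1 library left out). Of the 21, 3 had an unadjusted p under 0.05, against 2.65% of all tested genes, and by edgeR's quasi-likelihood test the adjusted p of each was 0.988. Itga3, a laminin-binding alpha chain, was at 96.2 and 108.0 CPM (WT) and at 64.7 and 77.7 CPM (PAD4-DN). Itgb4, the beta chain of hemidesmosomes, was at 15.4 and 12.9 CPM in WT against 8.73 and 8.80 CPM, and Itgb8, an activator of latent TGF-beta, at 4.26 and 3.69 CPM in WT against 5.76 and 7.42 CPM. These 3 were chosen for their small p. Over the list the libraries did not overlap for 4 higher and 3 lower of the 21, against 15.4% and 17.4% of all tested genes. Itga6 was at 611 and 454 CPM in WT libraries, then 446 and 593 CPM in PAD4-DN libraries.

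Of 20 other matrix receptors 18 were tested, 0 were called, and the median was 0.02 (−0.099 to 0.14 with 1 library left out). The log2 fold change was positive for 12 of the 18 and negative for 6. Among them Cd47, a thrombospondin receptor, was at 468 and 445 CPM (WT) and at 459 and 587 CPM (PAD4-DN). The endocytic receptor Lrp1 was at 1445 and 1357 CPM in WT against 1852 and 1375 CPM. Antxr1, with the smallest p of this list, was at 58.3 and 70.2 CPM in WT against 52.1 and 59.6 CPM. Bsg, of highest mean TPM, was at 408 and 325 CPM in WT against 296 and 345 CPM. Of 22 genes of integrin adhesion and signalling 21 were tested, 0 were called, and the median was −0.08 (−0.12 to −0.035 with 1 library left out). The log2 fold change was negative for 16 of the 21 and positive for 5, against 51.5% positive over all tested genes. Paxillin (Pxn) was at 137.6 and 120.6 CPM in WT libraries, then 102.8 and 112.3 CPM in PAD4-DN libraries. The membrane coat protein caveolin-1 (Cav1), the gene of highest mean TPM in this list, was at 686 and 696 CPM in WT against 851 and 754 CPM. Filamin A (Flna) was at 1237 and 1185 CPM in WT against 1066 and 1119.9 CPM. Both PAD4-DN libraries were below both WT libraries for 6 of these 21 genes and above for 2, against 17.4% and 15.4% of all tested genes.

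Markers of further cell types were summed in the same libraries. Endothelial markers summed to 138.1 and 137.1 CPM in WT libraries and to 156.4 and 116.4 CPM in PAD4-DN libraries over 12 genes, and pericyte and smooth muscle markers to 17.2 and 23.3 CPM against 26.2 and 16.6 CPM over 12. Neutrophil markers summed to 17.2 and 7.81 CPM against 21.8 and 10.5 CPM over 14, with Elane at 0 counts in every library. T and NK cell markers summed to 7.08 and 4.28 CPM against 10.7 and 5.74 CPM over 12. Erythroid and platelet markers summed to 43.4 and 7.30 CPM against 139.2 and 6.37 CPM over 12, and skeletal muscle markers to between 4.18 and 4.44 CPM over 10. The members together summed to 18372 and 13581 CPM in WT libraries and to 16280 and 20625 CPM in PAD4-DN libraries. Endothelial sums were above Postn in every library, and the summed fibroblast markers, at 2851 to 3449.8 CPM, were above every member but Fn1 in every library. These set sums over many genes against single genes. The endothelial markers of highest level were Eng (58.5 to 71.7 CPM), Pecam1 (26.8 to 57.7 CPM) and Flt1 (18.9 to 29.1 CPM). Each other endothelial marker, among them Cdh5, Kdr and Tek, was at most at 4.59 CPM. The part of these cells in the members' values was not tested.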

How the data were processed

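Per the submitters' processing notes the tool and build named were kallisto and GRCm39; no version, annotation or setting is stated there. As the file headers show, the authors deposited 1 table per sample of estimated counts, not normalized and not always whole, and of TPM, scaled for effective length. Of 117486 transcripts 116408 matched a gene by identifier in GENCODE M21 (GRCm38), and the rest held 0.483% to 0.493% of counts. All 76 transcripts of the members had the same length in both. Counts were summed per gene and rounded. PAD4-DN was compared with WT by edgeR 4.0.16 in R 4.3.3 (TMM, filterByExpr, 13718 genes, quasi-likelihood test, Benjamini-Hochberg). Members and lists were chosen with earlier results of these data known. Named genes are the members, the 3 smallest p and 3 highest mean TPM of each pathway list (not all printed), and the 3 protein-coding genes of at least 5 mean CPM nearest in profile to the 3 members with the widest range. Alternatives used DESeq2 1.42.0 and limma 3.58.1. The tests were tried on simulated counts. The labels name no molecular identifiers, and PCR copies were not told apart, so intervals and limits cover counting error only.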

Additional observations from a re-analysis of the deposited data

How the results depend on the processing

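The number of members past the threshold was 0 under every alternative run, and so was that of the pathway lists. Over all genes, 10 passed with DESeq2 on genes with at least 1 count, 11 with DESeq2 on genes kept by filterByExpr, 10 with edgeR without a low-count filter, and 0 to 2 when each library was left out in turn (Gm10800 and Rpl15-ps3 without WT replicate 2, named after the values were seen); the cause was not tested. The median change of the members was 0.25 with limma-trend on log2(TPM + 1), 0.29 on log2(TPM + 0.1), and 0.051 to 0.23 with 1 library left out. Over all tested genes the median was 0.063 and 0.067 on these TPM scales, against 0.0087 in the main fit. Members without overlap numbered 1 in CPM, 3 in TPM and 2 in CPM with no scaling factor, both scales chosen after seeing the data, against 32.8%, 33.4% and 32.7% of all tested genes, and 4 to 8 with 1 library left out, against 60.4% to 72.6%. Postn turned to 0.57 with limma-voom and 0.61 on log2(TPM + 0.1), and Cd44 to −0.0049 without the low-count filter and −0.034 with effective length offsets. With 1 library left out the changes ran from −0.050 to 0.48 for Fn1, −0.47 to 0.19 for Sparc, −0.46 to 0.75 for Tnc, −5.23 to 7.16 for Postn, −0.018 to 0.34 for Fbn1, −0.24 to 0.94 for Spp1, −0.36 to 1.10 for Tgfbi, −0.16 to 0.16 for Cd44 and −0.072 to 0.25 for Itga5. The correlation over genes of deviations from the group mean was −0.32 for same-numbered replicates and 0.32 for crossed numbers. With 2 libraries per group these values are opposite by construction, so they cannot show whether the labels' numbers are pairs. The main fit took no pairs. With the replicate block 0 genes and 0 members passed, and with the numbers crossed, a pairing added after seeing the data, 0 genes passed. Groups of 2 libraries limit what could be called: the median standard error over all tested genes was 0.20.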
